A study of Mus musculus with 12 samples.

Results

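The transcripts of 9 genes that encode subunits of voltage-gated sodium channels were followed in sorted sensory neurons of the mouse dorsal root ganglion (DRG). The genes were chosen by symbol: 6 pore-forming alpha subunits (Scn10a, Scn11a, Scn9a, Scn8a, Scn3a and Scn1a) and 3 auxiliary beta subunits (Scn2b, Scn3b and Scn4b), out of 41388 genes in the deposited tables. All 9 were present and all 9 passed the filter on low counts, which kept 15281 genes for testing. The neurons came from ganglia of levels L6 and S1 (called L6S1) or of levels L3, L4 and L5 (called L345), which serve the pelvic and the hindlimb region, from 3-month-old C57BL/6 mice of both sexes. The 12 libraries fall into 4 groups of 3, namely female L6S1 libraries A to C, male L6S1 libraries A to C, female L345 libraries B to D and male L345 libraries A to C. Mice of all 4 groups carried a floxed Ret allele followed by an EGFP reporter, as heterozygotes at the Ret locus, together with Scn10a<tm2(cre)Jnw>, a Cre recombinase placed in the Scn10a gene. EGFP appears only where Cre has excised the floxed segment, and cells were sorted by its fluorescence, so the libraries describe neurons with an active Ret locus and a history of Scn10a expression. The genotype field names 1 of the 2 alleles in the 4 libraries of a later submission (female L6S1 B and C, male L6S1 C and female L345 D), whose source names give both.

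The design limits what can be read from Scn10a itself. The Cre sits in the Scn10a locus of every mouse, so no library shows the gene without it, and gene-level counts do not separate the allele with Cre from the other. The number of Cre copies per mouse, 1 or 2, is stated by no source used here. Each library pooled 12 to 32 ganglia from 2 to 8 mice (for male L345 C the fields give 5 mice and 3 mice), and it is not stated whether pools of both spinal levels shared mice. Library totals lay between 16176436 and 26694404 counts. P-values measure the spread between pooled libraries. In such bulk samples, fewer cells of a type and less RNA per cell cannot be told apart.

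Sodium channels of this family open on depolarisation and carry the inward current of the action potential. One large alpha subunit forms the pore and the voltage sensors, and small beta subunits with an immunoglobulin-like domain modulate its gating and surface expression. NaV1.8 and NaV1.9 are the tetrodotoxin-resistant channels typical of nociceptors: NaV1.8 carries most of the upstroke current there, and NaV1.9 a persistent current near the resting potential. NaV1.7 is tetrodotoxin-sensitive and amplifies small depolarisations in sensory and sympathetic neurons, and in humans its loss abolishes pain.

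The difference in toxin sensitivity lies in the gene sequences themselves. A pore residue of the first domain is tyrosine in sensitive channels such as NaV1.7 and serine in both resistant channels of nociceptors. The 33 coding bases around that residue are shown 5′ to 3′ on the coding strand for 5 of the alpha subunits, from GENCODE M21 transcripts on GRCm38, with the codon of the residue in capitals. In each transcript the stretch lies within exon 9.
Scn10a (NaV1.8, chr9:119666372-119666404, minus strand): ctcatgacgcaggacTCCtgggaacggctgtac
Scn11a (NaV1.9, chr9:119805665-119805697, minus strand): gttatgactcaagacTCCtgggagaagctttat
Scn9a (NaV1.7, chr2:66548986-66549018, minus strand): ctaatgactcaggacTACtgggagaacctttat
Scn8a (NaV1.6, chr15:100971623-100971655, plus strand): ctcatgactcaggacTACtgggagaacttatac
Scn3a (NaV1.3, chr2:65521798-65521830, minus strand): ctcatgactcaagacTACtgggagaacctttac
The codon is TCC (serine) in Scn10a, at residue 356, and in Scn11a, at residue 385. It is TAC (tyrosine) in Scn9a, Scn8a and Scn3a. Scn10a and Scn11a differed from each other at 9 of the 33 bases, whereas Scn11a differed from the sensitive Scn9a at 5.

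Scn10a and Scn11a neighbour each other on chromosome 9 (Scn10a at chr9:119608456-119719032 and Scn11a at chr9:119753763-119825456, both on the minus strand). The 250 bases before each annotated start site are shown 5′ to 3′ from RefSeq on GRCm38.p6, because these were the genes with the lowest p-values between spinal levels. Capitals mark the longest run of bases that both windows share.
Scn10a (chr9:119719033-119719282, minus strand): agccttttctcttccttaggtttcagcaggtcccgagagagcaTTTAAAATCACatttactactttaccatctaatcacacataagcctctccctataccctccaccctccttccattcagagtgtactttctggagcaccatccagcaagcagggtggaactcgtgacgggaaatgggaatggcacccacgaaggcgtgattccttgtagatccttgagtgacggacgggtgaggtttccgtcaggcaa
Scn11a (chr9:119825457-119825706, minus strand): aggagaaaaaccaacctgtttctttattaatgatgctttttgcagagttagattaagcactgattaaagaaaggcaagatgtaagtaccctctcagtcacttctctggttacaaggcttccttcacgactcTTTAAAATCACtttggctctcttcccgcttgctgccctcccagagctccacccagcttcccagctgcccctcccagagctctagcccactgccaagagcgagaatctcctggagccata
The shared run tttaaaatcac has 11 bases and begins 207 bases before the Scn10a start site and 119 bases before that of Scn11a. It occurs, on either strand, in 6 of 32851 RefSeq promoter windows of this length (0.0183%), both windows shown among them. Because it was picked as the longest match of these windows, that share is not a test of the match. RefSeq gave a window for 7 of the 9 genes, and the longest same-strand run shared by a pair of them had 6 to 11 bases over the 21 pairs (median 8). On opposite strands, Scn10a and Scn1a also shared a run of 11 bases. These matches are a description of the letters and name no factor.

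Of the other genes, Scn9a (chr2:66480080-66634962, minus strand), Scn3a (chr2:65457118-65567627, minus strand) and Scn1a (chr2:66270781-66440840, minus strand) lie in one cluster on chromosome 2, and Scn8a lies on chromosome 15 (chr15:100870683-101045929, plus strand). Scn2b (chr9:45117876-45130070) and Scn4b (chr9:45138437-45154152) are neighbours on the plus strand of chromosome 9, where Scn3b also lies (chr9:40269216-40291618, plus strand). Scn9a shares 180 exon bases with the antisense transcript Gm13629, which held 0 to 15 counts per library. No source used here states whether counting used strand, and reads from that stretch could belong to either gene.

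Of the 6 alpha subunits, the sorted cells carried the 2 resistant channels and NaV1.7 far above Scn1a, Scn8a and Scn3a. Levels are compared between genes as TMM RPKM, TMM-scaled CPM divided by the deposited gene length in kilobases. Scn11a averaged 99.6 ± 22.9 TMM RPKM (SD, n = 12), Scn10a 78.2 ± 17.0 and Scn9a 41.7 ± 11.4. The length used matters for Scn9a, whose deposited length is 12772 bases while its longest transcript has 9840. It matters likewise for Scn3a (12459 and 9560 bases), Scn1a (11079 and 8386) and Scn3b (5546 and 4150), and less for Scn8a (12141 and 11436). Before division by length, the means were 582 CPM for Scn11a, 501 for Scn10a and 532 for Scn9a. Scn7a, which encodes the sodium-sensing channel Nax and is not one of the 9, lay beside Scn9a at 44.1 ± 13.4 TMM RPKM. Scn1a (NaV1.1, typical of fast-conducting fibres) averaged 2.25 ± 0.60, Scn8a (NaV1.6, the channel of nodes of Ranvier) 1.36 ± 0.27 and Scn3a (NaV1.3, mainly an embryonic and injury-associated channel) 0.95 ± 0.23 TMM RPKM. Among the beta subunits, Scn2b averaged 60.7 ± 18.2 TMM RPKM and Scn3b 35.2 ± 3.1, against 4.79 ± 1.51 for Scn4b, whose product supplies the blocking particle of resurgent current.

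The order held within libraries to different degrees. Scn11a exceeded Scn10a in 12 of 12 libraries on the TMM RPKM scale, with a mean ratio of 1.27 ± 0.19 in L6S1 libraries and 1.28 ± 0.07 in L345 libraries (SD, n = 6 each). Scn10a exceeded Scn2b in 8 of 12 libraries, Scn2b exceeded Scn9a in 10 and Scn9a exceeded Scn3b in 9, so these neighbours overlapped. Scn3b stood 7.36-fold above Scn4b in mean TMM RPKM and was higher in 12 of 12 libraries. Below that gap, Scn4b exceeded Scn1a in 11 libraries, Scn1a exceeded Scn8a in 12 and Scn8a exceeded Scn3a in 12. These counts rest on the deposited lengths. With the longest transcripts instead, Scn3a would exceed Scn8a in some libraries, such as male L345 B (14.5 against 15.3 CPM before division by length).

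**Figure D1:**
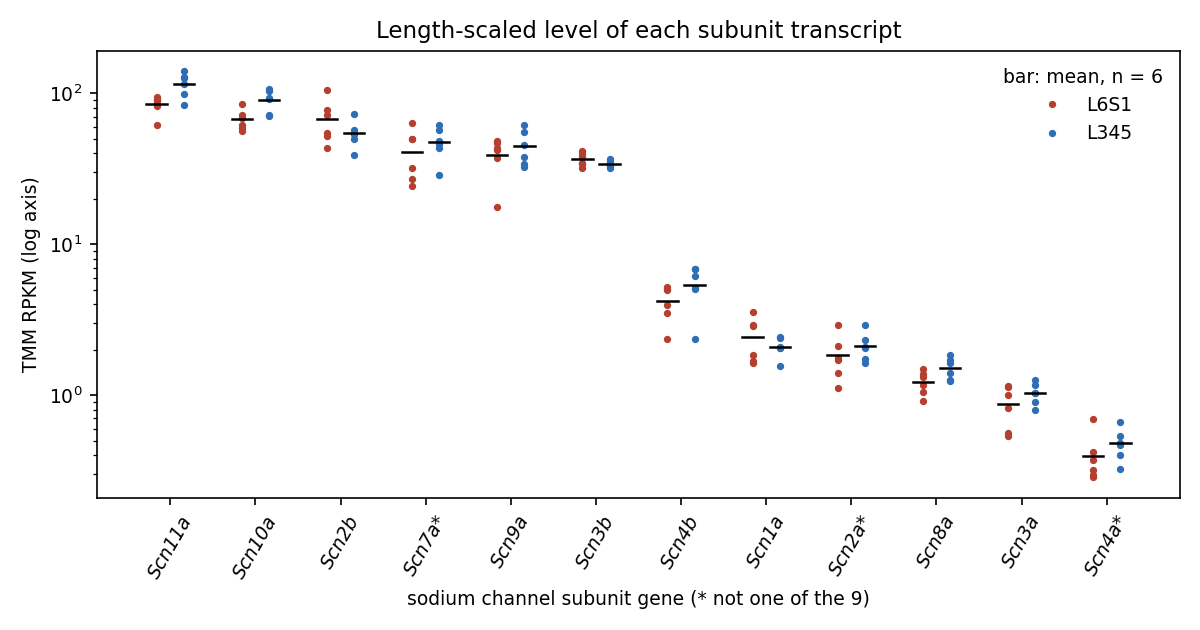
TMM RPKM (log axis) of the 9 subunit genes and of 3 further sodium channel genes (asterisks) in each of 6 L6S1 libraries (left, red) and 6 L345 libraries (right, blue), with bars at the means. Scn11a, Scn10a, Scn2b, Scn7a, Scn9a and Scn3b form an upper set, and Scn3b exceeds Scn4b in every library.

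Expressed as a share of the summed TMM RPKM of 8 alpha subunits (the 6 above with Scn2a and Scn4a), Scn11a made up 42.6% ± 3.3 in L6S1 and 44.7% ± 2.7 in L345 libraries (SD, n = 6 each). The share of Scn10a was 34.0% ± 5.1 in L6S1 and 34.9% ± 2.9 in L345 libraries. Scn9a made up 19.9% ± 6.0 in L6S1 and 17.5% ± 5.0 in L345 libraries. Together these 3 genes held 95.6% to 97.5% of the alpha total in all 12 libraries, and the 2 resistant channels alone held 76.7% ± 6.6 in L6S1 and 79.6% ± 5.2 in L345 libraries. The share of the 2 resistant channels, L6S1 minus L345, was -2.95 percentage points, and it ran from -5.32 without female L6S1 C to -1.78 without male L345 C. Without female L6S1 C the Scn9a share averaged 22.1% in L6S1 libraries. Scn1a made up 1.21% ± 0.356 in L6S1, from 0.813% to 1.71%, and 0.818% ± 0.0394 in L345 libraries, from 0.764% to 0.87%, with overlap. The summed alpha TMM RPKM was 197 ± 15.1 in L6S1 and 256 ± 35.6 in L345 libraries. The summed TMM RPKM of the 3 beta subunits was 108 ± 20.0 in L6S1 and 93.5 ± 12.3 in L345 libraries. These shares and sums were described and not tested.

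**Figure D2:**
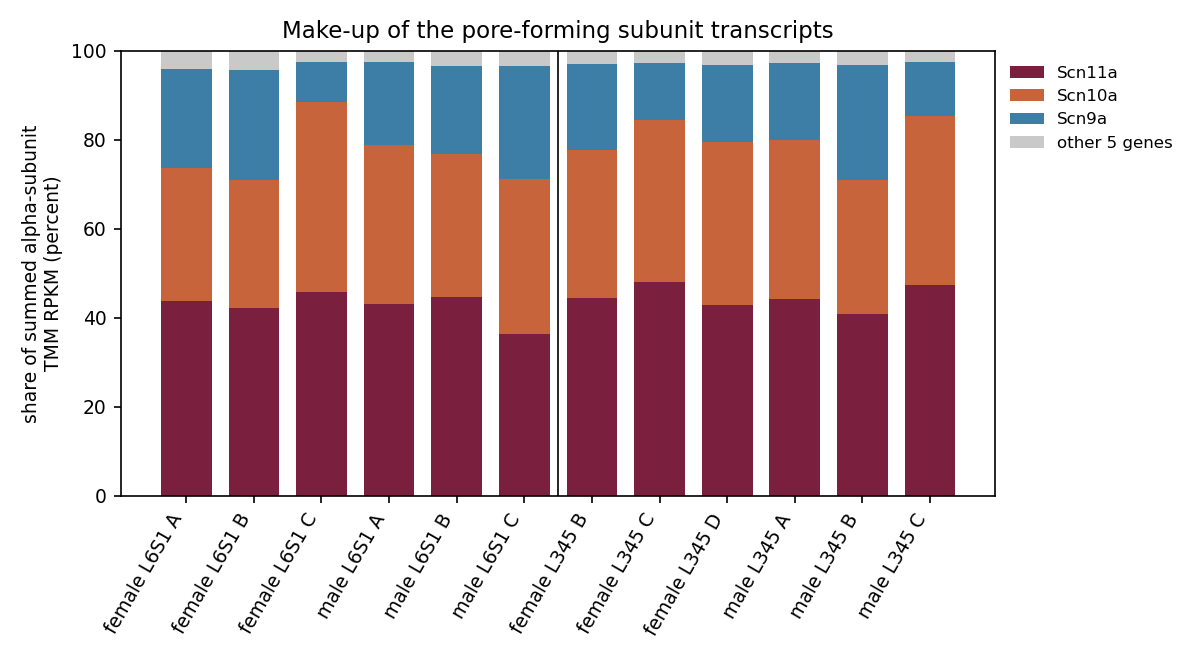
Share of the summed alpha-subunit TMM RPKM (percent, y axis) held by Scn11a, Scn10a, Scn9a and the other 5 alpha subunit genes in each library, L6S1 on the left and L345 on the right of the line. In female L6S1 C the Scn9a segment is 8.97%, the smallest of the 12, and the Scn10a segment is 42.8%, the largest.

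The design asks whether neurons of L6S1 ganglia differ from those of L345 ganglia. None of the 9 genes passed the adjusted p threshold of 0.05 in edgeR's quasi-likelihood test over all 12 libraries, with Benjamini-Hochberg adjustment over 15281 genes, of which 356 passed (2.33%). At an unadjusted p under 0.05 there were 2 of the 9, Scn10a and Scn11a, both with negative fold changes, beside 26.6% of all genes. DESeq2 called none of the 9, where it called 11% of 13771 genes with an adjusted p, and limma-voom with sample quality weights called Scn10a and Scn11a, where it called 21.4% of all genes. The median log2 fold change of the 9 genes was -0.26, with 6 of 9 negative, beside a median of -0.06 and 55.5% negative over all genes tested.

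Scn10a, the gene that carries the Cre, had 397, 359 and 540 TMM-scaled CPM (the share of a library's counts, on the usual CPM scale) in female L6S1 libraries A, B and C and 461, 441 and 378 CPM in male L6S1 libraries A, B and C. In L345 ganglia it had 600, 678 and 453 CPM in female libraries B, C and D and 591, 462 and 658 CPM in male libraries A, B and C. Each of the 6 L6S1 values was under the mean of the L345 libraries of the same sex, yet the ranges overlapped, since female L6S1 C and male L6S1 A exceeded the lowest L345 value. The means were 429 ± 66.5 CPM in L6S1 and 573 ± 96.0 CPM in L345 libraries (SD, n = 6 each). The log2 fold change was -0.42 ± 0.14 (SE), with an edgeR p of 0.0108 and an adjusted p of 0.101, which ran from 0.00988 to 0.367 over the 23 alternatives. The lowest came from a replicate block (libraries of a sex paired by letter), a fit that called 34.9% of all genes. Its female effect rests on letters B and C, since female L6S1 A and female L345 D have no partner. In both pairs the L6S1 library is of a later submission than the L345 library. Spinal level and submission therefore cannot be told apart in females in that fit.

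Scn11a had 532, 479 and 524 CPM in female L6S1 libraries A, B and C and 506, 554 and 359 CPM in male L6S1 libraries A, B and C. In L345 ganglia it had 735, 818 and 484 CPM in female libraries B, C and D and 670, 572 and 747 CPM in male libraries A, B and C. Again each L6S1 value was under the same-sex L345 mean, and only female L345 D (484 CPM) reached down into the L6S1 range. That library is the only L345 library of the later submission. Scn11a ran from 359 to 524 CPM in the later libraries and from 506 to 818 CPM in the first ones, so submission and spinal level are partly confounded here. Scn11a averaged 492 ± 69.8 CPM in L6S1 and 671 ± 123 CPM in L345 libraries (SD, n = 6 each). The log2 fold change was -0.45 ± 0.15 (SE), with an edgeR p of 0.00843 and an adjusted p of 0.0935. Without female L345 D the adjusted p of Scn11a was 0.0392, in a fit that called 5.63% of all genes. Without female L6S1 A it was 0.0405, in a fit that called 25.7%, and it ran from 0.00526 to 0.294 over all 23 alternatives. The lowest again came from the replicate block, which called 34.9% of all genes.

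Scn9a showed no such separation. Its lowest, median and highest values were 225, 542 and 613 CPM in L6S1 and 415, 528 and 790 CPM in L345 libraries. The medians were close, and the lowest L6S1 value came from female L6S1 C alone. The log2 fold change was -0.18 ± 0.23 with an adjusted p of 0.624 by edgeR. Without female L6S1 C the log2 fold change was -0.001, and it ran from -0.292 to -0.001 over the fits that left out 1 library.

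The 3 scarce alpha subunits rested on fewer reads, 160 to 758 counts per library. Scn8a ran from 11 to 17.9 CPM (median 15) in L6S1 and from 15 to 22.2 CPM (median 18.4) in L345 libraries, each of the 6 L6S1 values being under the same-sex L345 mean. Its log2 fold change was -0.32 ± 0.16 with an adjusted p of 0.215 by edgeR. Scn3a ran from 6.70 to 14.3 CPM (median 11.4) in L6S1 and from 9.97 to 15.6 CPM (median 12.9) in L345 libraries, a log2 fold change of -0.26 ± 0.21 with an adjusted p of 0.427. Scn1a was the 1 alpha subunit of the 6 with a positive value, 0.19 ± 0.20 with an adjusted p of 0.542. It spread widely at L6S1, from 18.1 to 39.3 CPM (median 26.0), and from 17.3 to 26.7 CPM (median 23.0) at L345. Its log2 fold change ran from 0.05 without male L6S1 B to 0.33 without female L6S1 C.

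The 3 beta subunits differed in the sign of their values, and none passed the test. Scn2b, whose product is disulphide-linked to the alpha subunit, ran from 198 to 478 CPM (median 287) in L6S1 and from 177 to 334 CPM (median 244) in L345 libraries, a log2 fold change of 0.30 ± 0.19 with an adjusted p of 0.308 by edgeR. Its values followed the submission: the 4 later libraries held 324 to 478 CPM and the 8 first libraries 177 to 259 CPM, without overlap. None of the other 8 genes was separated in this way, and the share of all genes so separated was not counted. Within the first submission, where female L6S1 is library A alone, the log2 fold change of Scn2b was 0.00 ± 0.13 with an adjusted p of 0.998. Because 3 of the 4 later libraries are L6S1, submission and spinal level are partly confounded, for this gene and for the other 8.

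Scn3b was the steadiest of the 9, with a coefficient of variation of 8.71% over the 12 libraries against 19.9% to 31.6% for the others. It averaged 202 ± 20.4 CPM in L6S1 and 188 ± 10.2 CPM in L345 libraries (SD, n = 6 each), a log2 fold change of 0.10 ± 0.11 with an adjusted p of 0.537 by edgeR. Scn4b varied most, from 11.6 to 25.8 CPM (median 22.1) in L6S1 and from 11.6 to 33.9 CPM (median 27.9) in L345 libraries. The lowest values were those of female L6S1 B and male L345 B. Its log2 fold change was -0.38 ± 0.25 with an adjusted p of 0.335.

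**Figure D3:**
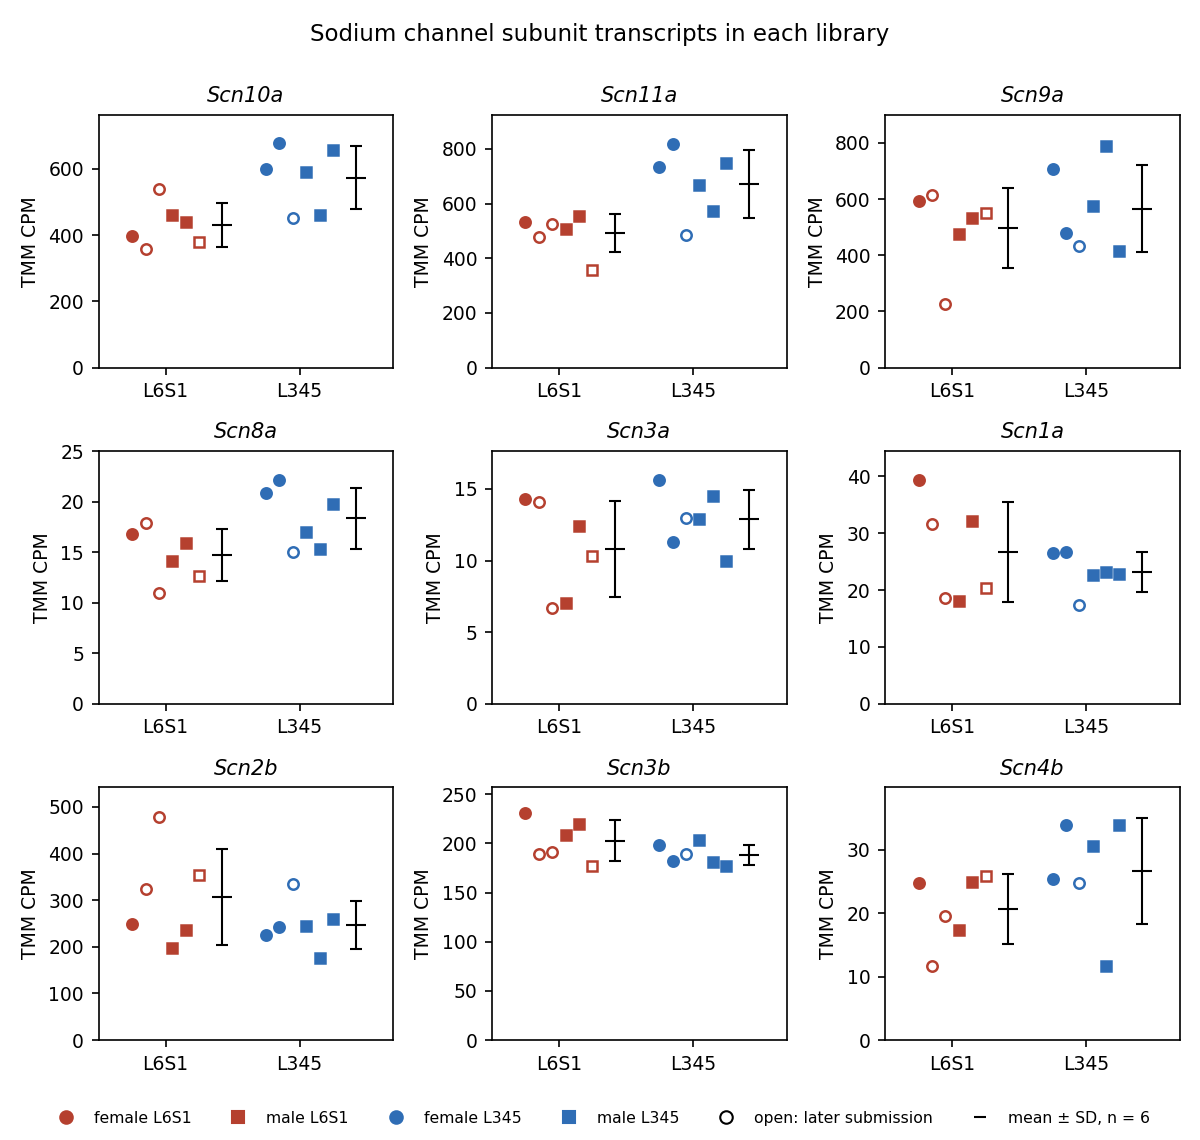
TMM CPM (y axis, from 0) of each subunit gene in each library, L6S1 left of L345, with circles for females, squares for males, open symbols for the later submission and bars for the mean ± SD of 6 libraries. The Scn10a and Scn11a points are lower at L6S1 with overlap, the open symbols are the highest for Scn2b, and female L6S1 C stands apart for Scn9a at 225 CPM.

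Results for the 2 resistant channels depended on which libraries and which correction entered the fit. In the 8 libraries of the first submission alone, edgeR called 3.12% of 15971 genes, among them Scn10a (log2 fold change -0.53 ± 0.12, adjusted p 0.0348) and Scn11a (-0.45 ± 0.11, adjusted p 0.0413). In that fit female L6S1 is the single library A, which is assumed to vary like the other groups. With submission as a term over all 12 libraries neither was called, at -0.35 ± 0.15 for Scn10a (adjusted p 0.265) and -0.29 ± 0.12 for Scn11a (adjusted p 0.246). Libraries also differed in the balance of long against short transcripts, and the cause was not tested. The median deviation of the top decile of transcript length from the mean over libraries, minus that of the bottom decile, ran on the log2 scale from -0.83 to 0.05 over the 6 L6S1 libraries and from -0.21 to 0.53 over the 6 L345 libraries. Across 12822 genes with a mean log2 CPM above 0, the log2 fold change between spinal levels fell with transcript length (Spearman's rho -0.46, across genes, which are not independent replicates), and the longest transcripts of the 9 genes are 4150 to 11436 bases long. Per-library offsets for GC content and transcript length take out differences tied to these features, whatever their source. With the offsets, the log2 fold change was -0.16 ± 0.11 for Scn10a (adjusted p 0.367) and -0.24 ± 0.11 for Scn11a (adjusted p 0.206). In that fit Scn9a, Scn8a and Scn3a had positive values (0.14, 0.03 and 0.05), and Scn1a was the 1 gene of the 9 called, at 0.47 ± 0.11 with an adjusted p of 0.0308, where 5.24% of all genes were called. The median of the 9 genes was then 0.05, beside 0.01 over all genes.

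**Figure D4:**
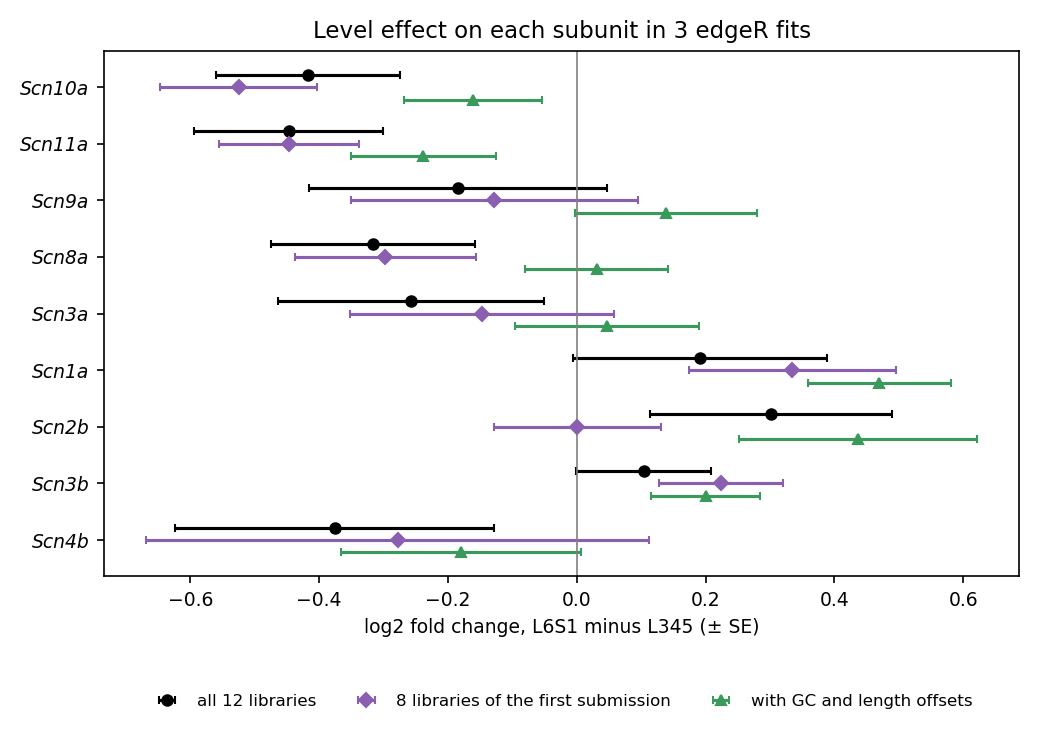
Log2 fold change, L6S1 minus L345, with its SE (x axis) for each of the 9 genes in the edgeR fit of 12 libraries (black), of the 8 first-submission libraries (purple) and of 12 libraries with GC and length offsets (green). Scn10a and Scn11a stay negative in all 3 fits at -0.53 to -0.16, while Scn9a, Scn8a and Scn3a change sign with the offsets.

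Both sexes gave similar values for the resistant channels. The log2 fold change of Scn10a was -0.42 ± 0.20 in females and -0.42 ± 0.20 in males, and that of Scn11a was -0.41 ± 0.21 in females and -0.49 ± 0.21 in males. In females edgeR called none of the 9 genes, where it called 0.36% of all genes, with none of the 9 at an unadjusted p under 0.05, beside 24% of all genes. DESeq2 and limma-voom called none of the 9 in females, where they called 5.57% and 0.34% of all genes. In males it called none of the 9, where it called 0.222% of all genes, with 1 of the 9 (Scn11a) at an unadjusted p under 0.05, beside 8.83% of all genes. In males DESeq2 called none of the 9 and 0.759% of all genes, and limma-voom called 2 (Scn10a and Scn11a) and 12.2% of all genes. The widest gap between sexes in the level effect was that of Scn4b, at -0.59 ± 0.35 in females and -0.16 ± 0.35 in males.

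The test of the difference itself (the effect of spinal level in females, less that in males) called no gene in edgeR (0% of 15281, 714 or 4.67% at an unadjusted p under 0.05), against 2 in DESeq2, 2 in limma-voom, 3 in edgeR without the filter and 817 in edgeR without female L6S1 A, none of them among the 9. For the 9 genes this difference ran from -0.43 (Scn4b) to 0.30 (Scn1a) on the log2 scale, with adjusted p from 0.916 to 0.999, and none of the 9 had an unadjusted p under 0.05. Females minus males over both spinal levels, the 9 genes ran from -0.13 (Scn9a) to 0.32 (Scn2b), with adjusted p from 0.769 to 0.985. The later libraries were all female apart from male L6S1 C, so sex and submission are partly confounded as well. That includes Scn2b, whose values followed the submission. None of the 9 was called by edgeR, where 0.0589% of all genes were, and none had an unadjusted p under 0.05, where 5.96% of all genes had. Neither DESeq2 (0.203% of all genes called) nor limma-voom (0.0654%) called any of the 9.

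Further sodium channel genes were likewise not called between spinal levels: 0 of 4 (Scn2a, Scn4a, Scn7a and Nalcn) passed in edgeR, with none at an unadjusted p under 0.05 and a median log2 fold change of -0.24. Scn7a was the most abundant of them. Nalcn, the sodium leak channel, averaged 3.59 ± 0.98 (SD, n = 12), Scn2a (NaV1.2) 1.97 ± 0.54 and Scn4a (the skeletal muscle channel NaV1.4) 0.44 ± 0.14 TMM RPKM. The log2 fold changes of these 4 genes between spinal levels ran from -0.40 ± 0.21 (Nalcn) to -0.22 ± 0.24 (Scn7a), and with GC and length offsets those of Scn2a, Scn4a and Scn7a were positive.

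Of 24 genes whose products bind, anchor, traffic, cleave or modify sodium channels, 2 passed between spinal levels in edgeR, both lower at L6S1, and none was higher, beside 0.877% of all genes lower and 1.45% higher. An unadjusted p under 0.05 was found for 11 of the 24, beside the 26.6% of all genes. Nedd4l, a ubiquitin ligase that removes sodium channels from the membrane, ran from 146 to 228 CPM (median 201) in L6S1 and from 230 to 324 CPM (median 298) in L345 libraries, without overlap. Its log2 fold change was -0.55 ± 0.13 with an adjusted p of 0.0381, lower in 6 of 6 L6S1 libraries. Magi1, a scaffold protein that binds NaV1.8, ran from 84.9 to 157 CPM (median 133) in L6S1 and from 167 to 217 CPM (median 184) in L345 libraries, also without overlap. Its log2 fold change was -0.57 ± 0.14 with an adjusted p of 0.0483, lower in 6 of 6. The share of all genes without overlap between spinal levels was not counted. With GC and length offsets the log2 fold change was -0.28 for Nedd4l (adjusted p 0.0837) and -0.32 for Magi1 (adjusted p 0.0851), and neither was called. With submission as a term the adjusted p was 0.102 for Nedd4l and 0.0989 for Magi1, and in the first submission alone 0.0291 for Nedd4l and 0.0546 for Magi1. Of the 12 fits that left out 1 library, 3 called Nedd4l (adjusted p 0.00386 to 0.12 over the 12) and 2 called Magi1 (0.000726 to 0.142).

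Ank3, which encodes the ankyrin that clusters sodium channels at the axon initial segment, averaged 170 ± 35.2 CPM in L6S1 and 250 ± 43.6 CPM in L345 libraries (SD, n = 6 each), a log2 fold change of -0.56 ± 0.17 with an adjusted p of 0.0799 by edgeR. Ank3 was called by DESeq2 (adjusted p 0.0371) and by limma-voom (0.0106), which called 11% and 21.4% of all genes. Of the 12 fits that left out 1 library, 2 called Ank3. With submission as a term its adjusted p was 0.227 in edgeR, and in the first submission alone its log2 fold change was -0.59. With GC and length offsets its log2 fold change was -0.24 with an adjusted p of 0.171. S100a10 (p11), which carries NaV1.8 to the membrane, averaged 1020 ± 105 CPM in L6S1 and 802 ± 91.7 CPM in L345 libraries, a log2 fold change of 0.35 ± 0.11 with an adjusted p of 0.0857 by edgeR. S100a10 was also called by DESeq2 (adjusted p 0.0339) and by limma-voom (0.0109). Of the 12 fits that left out 1 library, 1 called S100a10. That fit, without female L6S1 A (adjusted p 0.0102), called 25.7% of all genes. With the offsets its log2 fold change was 0.05 with an adjusted p of 0.723. Fgf13, an intracellular FGF that binds the tail of NaV1.7 and other alpha subunits, had a log2 fold change of 0.01 ± 0.12 with an adjusted p of 0.973. The median over the 24 genes was -0.17.

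Markers of sensory neuron classes are given beside these values as summed CPM of each list, scaled to the library's own total. Their calls stand beside the edgeR shares over all genes tested, 0.877% lower and 1.45% higher at L6S1. The 4 genes of the Mrgprd class (Mrgprd, Lpar3, P2rx3, Runx1), non-peptidergic nociceptors rich in NaV1.8 and NaV1.9, summed to 681 to 1070 CPM (median 872) in L6S1 and 805 to 1150 CPM (median 1090) in L345 libraries, with 2 of 4 called lower in edgeR. The 3 peptidergic genes (Calca, Tac1, Trpv1) summed to 9050 to 14900 CPM (median 12300) in L6S1 and 8640 to 9520 CPM (median 9170) in L345 libraries, with 2 of 3 called higher. The 8 pan-neuronal markers summed to 15100 to 18900 CPM in L6S1 and 13900 to 15800 CPM in L345 libraries, with 1 of 8 called, lower. Their part in the values of Scn10a and Scn11a was not tested.

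Markers of other cells were measured in the same way, beside the same shares of all genes, 0.877% lower and 1.45% higher. The 5 markers of large myelinated neurons summed to 92.7 to 151 CPM in L6S1 and 91.6 to 184 CPM in L345 libraries, with none called, and the 4 of C low-threshold mechanoreceptors to 1360 to 1770 CPM in L6S1 and 1060 to 1560 CPM in L345 libraries, with none called. The 10 glial markers summed to 3950 to 4690 CPM in L6S1 and 3740 to 4410 CPM in L345 libraries, with none called and Mag at 0 in at least 1 library. The 6 fibroblast markers summed to 123 to 319 CPM in L6S1 and 68.9 to 94.0 CPM in L345 libraries, without overlap, with 1 called higher. The 8 immune markers summed to 7.22 to 184 CPM in L6S1 and 3.75 to 4.65 CPM in L345 libraries, with 2 of 4 tested called higher, and C1qa, C1qc and Cd68 at 0 in at least 1 library. The fibroblast and immune sums were the 2 of the 10 lists whose ranges did not overlap between spinal levels. The highest immune sum was that of female L6S1 C, the library with the lowest Scn9a. Endothelial and mural markers summed to 206 to 404 CPM in L6S1 and 197 to 306 CPM in L345 libraries, with none called, and blood markers to at most 3.23 CPM with Hbb-bt and Hba-a1 at 0 in at least 1 library. The part of these cells in the values of the 9 genes was not tested.

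The genes whose profile over the 12 libraries was most like that of each subunit were found by Pearson's correlation of log2 CPM among 8311 tested genes averaging 10 CPM or more. These values are descriptions over libraries that share composition differences, and no gene among them was called between spinal levels. Scn10a was most like Ankrd50 (r = 0.96), Mlec (0.96) and Kpna6 (0.95), and Scn11a most like Sec16a (0.97), Abcc5 (0.96) and Trp53bp1 (0.96). Scn9a was most like Zfp946 (0.98), Pibf1 (0.98) and Nol8 (0.97), and Scn8a most like Epb41l5 (0.97), Hipk3 (0.94) and Mre11a (0.94). Scn3a was most like Rbms3 (0.95), Srsf10 (0.94) and Braf (0.94), and Scn1a most like Strbp (0.94), Pcdh9 (0.92) and Fstl5 (0.90). Scn2b was most like Cyb5r1 (0.96), Cnnm4 (0.96) and Atg7 (0.95), and among the genes most like Scn4b were Orai2 (0.91) and Ablim3 (0.90). For Scn3b, the steadiest of the 9, the highest values were lower: Nrcam, an adhesion protein of nodes of Ranvier, at 0.80, Rnf14 at 0.79 and Tsc22d1 at 0.78.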

How the data were processed

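RNA of EGFP-sorted DRG cells was made into cDNA with a low-input kit and sequenced on an Illumina HiSeq, per the labels' protocols. Per the submitters' processing notes, Subread aligned the reads to GRCm38.p2 and featureCounts 1.4.5 counted them; no source used here states the annotation release or strand setting. The authors deposited whole-number counts for 41388 genes per library. Deposited CPM values are the counts scaled to the table's total, and deposited RPKM values are those CPM divided by the listed gene length in kilobases; neither was tested. Library totals lay between 16176436 counts (female L6S1 A) and 26694404 counts (female L345 D), so that a floor of 3 counts is 0.112 to 0.185 CPM, which covers counting error only.

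GENCODE M21 gave symbols for 40254 genes. The counts were tested with edgeR 4.0.16 (R 4.3.3) after TMM scaling and filterByExpr by group (15281 genes). Each of the 4 groups of 3 libraries had its own mean in a robust quasi-likelihood model with 8 residual degrees of freedom, and p-values were adjusted by Benjamini-Hochberg over all tested genes. The spinal level contrast weighted both sexes equally. The code was checked on simulated counts. Alternatives were DESeq2 1.42.0, limma 3.58.1 (voom with quality weights), other scalings and filters, the submission, a replicate block, spline offsets (4 degrees of freedom) for GC content and length, and each library left out. Libraries of one group differed by a chi-square of 10.6 to 140.1 per degree of freedom and none was a copy of another.

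All 9 subunit genes were named whatever their values. Partner genes were named where called, with Fgf13, Ank3, S100a10 and Nedd4l always, and so were the 3 most similar genes per subunit. A few items of these lists are not reported here. The members, lists and alternatives were chosen with earlier results of these data known.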

Additional observations from a re-analysis of the deposited data

Results flagged for a closer look

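Scn9a in female L6S1 C was 225 CPM, while the other 5 L6S1 libraries held 476 to 613 CPM. The gap to the nearest of them was 0.647 of the range of the group, above Dixon's 95% critical value of 0.625 for 6 libraries. Among 18 groups examined (9 genes at 2 spinal levels) it was the 1 that passed, and chance alone passes about 1 in 20. The same library had the lowest log2 difference between the top and bottom deciles of transcript length (-0.83) and the highest immune marker sum (184 CPM); their part in the value was not tested.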

How the results depend on the processing

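The number of the 9 genes called between spinal levels was 0 with all 12 libraries and moved to 2 with limma-voom, 1 without the filter, 2 in the first submission alone, 1 with GC and length offsets (Scn1a) and 0 to 1 over the fits that left out 1 library; with the replicate block it was 4 (Scn10a, Scn11a, Scn8a, Scn2b). Of all genes, 356 (2.33%) were called with all 12 libraries, 3268 (21.4%) with limma-voom, 841 (3.15%) without the filter, 499 (3.12%) in the first submission, 800 (5.24%) with the offsets, 80 (0.51%, without female L345 B) to 4031 (25.7%, without female L6S1 A) with 1 library left out and 5335 (34.9%) with the block. In males 2 of the 9 were called with limma-voom (12.2% of all genes), and in females 3 with the block (31.7%). The female pairs of the block, letters B and C, set L6S1 libraries of the later submission against L345 libraries of the first. Spinal level and submission cannot be told apart in those pairs, which bears on the block's calls, that of Scn2b included. The block called 981 genes for the difference between sexes in the level effect. Libraries of both levels that share a sex and a letter deviated together weakly at most (correlations 0.018 to 0.233, highest for female B, not all above 0.1). The letters were therefore not taken as pairs, and the sex contrast could not be fitted with the block. Scn10a and Scn11a kept negative fold changes in all 23 alternatives (-0.53 to -0.16 and -0.57 to -0.24). With GC and length offsets the sign turned for Scn9a (0.139), Scn8a (0.031), Scn3a (0.047), Scn2a (0.081), Scn4a (0.011), Scn7a (0.063) and Fgf13 (-0.044). With the replicate block it turned for Scn1a (-0.068). Fgf13 turned to -0.001 with limma-voom, -0.038 with submission as a term, -0.136 in the first submission and -0.124 without female L6S1 B and C, and ran from -0.107 to 0.071 with 1 library left out. Scn4b in males ran from -0.504 to 0.108 with 1 library left out. The cause of these turns was not tested. The median of all genes tested lay between -0.099 and 0.014 under every setting run. Among the 9 genes, depth limits Scn3a most, at 160 to 415 counts per library.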
